A study of Mus musculus with 2 samples.

Results

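Oligodendrocyte precursor cells (OPCs) in the hippocampus of tauopathy mice were described from single-nucleus RNA sequencing. OPC nuclei were selected on their measured counts of unique molecular identifiers (UMIs), which stand for captured RNA molecules, and 405 of the 20594 nuclei past the quality filters met the rule. The filters asked for a minimum of 600 UMIs and 300 genes in a nucleus and for mitochondrial UMIs of up to 5%. Per 10000 UMIs of a nucleus, the sum over *Pdgfra*, *Vcan*, *Cspg4*, *Neu4* and *Cacng4* had to reach 10, with at least 1 UMI of *Pdgfra*. Nuclei were left out where, on the same scale, the oligodendrocyte genes *St18*, *Prr5l* and *Mog* together reached 20, the vascular genes *Lama1*, *Slc6a13* and *Dcn* reached 5, *Gad1* and *Gad2* of inhibitory neurons reached 3, or the microglial genes *Inpp5d* and *Csf1r* reached 5. The levels of these genes therefore describe the choice of nuclei and are not findings.

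OPCs are the dividing glial cells of the adult brain from which myelinating oligodendrocytes arise. They depend on platelet-derived growth factor, which they sense through PDGFRα, carry the proteoglycan NG2 (*Cspg4*) and receive synapses from neurons. On differentiation they leave the cell cycle, pass through a short-lived committed stage marked by *Gpr17* and *Enpp6*, and then switch on myelin genes.

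The PS19 mice (PS19+/- Zbp1+/+) carry a human mutant tau transgene under the prion promoter, and the PZKO mice (PS19+/- Zbp1-/-) carry the same transgene and lack *Zbp1*, a sensor of left-handed double-stranded nucleic acid. Each genotype was sequenced as 1 library, which held pooled hippocampi of 5 males aged 9 months, although the methods also speak of separate processing of the animals. The study asked how the loss of ZBP1 alters tau-driven disease. No library without the tau transgene was analysed here, so all values compare 1 tauopathy library with another. With 1 library per genotype no test was possible, and the 95% intervals given here (exact binomial, Clopper-Pearson) cover counting error only, not the spread between mice.

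The depth of the OPC nuclei differed between the libraries. The 203 PS19 nuclei had between 818 and 38990 UMIs (median 7147) and 1526125 UMIs in all. The 202 PZKO nuclei had between 838 and 46200 UMIs (median 10266) and 2259244 UMIs in all. The PZKO median was 1.44 times the PS19 median, and in astrocytes and excitatory neurons the same ratio was 1.26 and 1.46. The median share of mitochondrial UMIs per OPC nucleus was 0.396% in PS19 and 0.251% in PZKO. The libraries shared 47 cell barcodes, and no OPC nucleus of one library had the barcode of an OPC nucleus of the other.

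The rule took similar steps in both libraries. The marker sum reached its minimum in 299 PS19 nuclei and 303 PZKO nuclei, of which 249 and 251 had a UMI of *Pdgfra*, and the limits on genes of other cell types removed 46 and 49 of these. The marker sum just inside the threshold was 10.1 in PS19 and 10.3 in PZKO, and the nearest nuclei outside it had 9.65 and 9.83. OPC nuclei made up 1.94% of the PS19 nuclei (95% interval 1.68% to 2.22%) and 1.99% of the PZKO nuclei (1.73% to 2.29%). These intervals overlapped over most of their width, so that at this depth no difference in the share of OPCs was detectable. With no exclusion genes the shares were 2.38% and 2.48%, and with a marker sum of 20 and 2 UMIs of *Pdgfra* they were 1.67% in both libraries.

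*Zbp1* (chromosome 2, 173206612 to 173218923, mm10) had 0 UMIs in the OPC nuclei of both libraries. With 3 counts taken as its upper limit, a count of 0 allows up to 1.97 counts per 1000000 UMIs (CPM) in PS19 and 1.33 CPM in PZKO. The count of 0 therefore does not exclude expression in OPCs at the level of the whole library. Over all nuclei past the filters, *Zbp1* had 109 UMIs (0.963 CPM) in PS19 against 50 (0.295 CPM) in PZKO, at a log2 ratio of −1.71 (95% interval −2.22 to −1.21). Which exons the knockout removes was not given in the sources used here, so it is unknown whether the 3′ reads lie in the deleted part.

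The label of the nuclei was checked with 15 OPC genes that the rule had not used, which summed to 28254 CPM in PS19 OPCs and 28287 CPM in PZKO OPCs. *Lhfpl3*, a tetraspan membrane protein gene, had 11639 UMIs (7627 CPM) in PS19 against 17157 (7594 CPM) in PZKO, and was detected in 202 of 203 and 199 of 202 nuclei. Its level in oligodendrocytes was 82.3 and 63.4 CPM, in astrocytes 41.5 and 44.0 CPM, and in excitatory neurons 56.0 and 91.5 CPM. To set nuclei of unequal depth side by side, each was thinned to 3000 UMIs, which left out 14 PS19 and 4 PZKO OPC nuclei with fewer. On this scale 99.5% of the OPC nuclei of either library had a UMI of *Lhfpl3*, against 7.31% and 6.28% of astrocytes, and without thinning the shares were 99.5% and 98.5%. *Olig2*, which encodes the transcription factor that specifies the lineage, stood at 142 CPM in PS19 and 116 CPM in PZKO OPCs, against 6.11 and 3.61 CPM in astrocytes. *Sox10*, a factor of the whole lineage, had 328 and 289 CPM in OPCs and 292 and 276 CPM in oligodendrocytes, so it did not separate these classes.

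**Figure D1:**
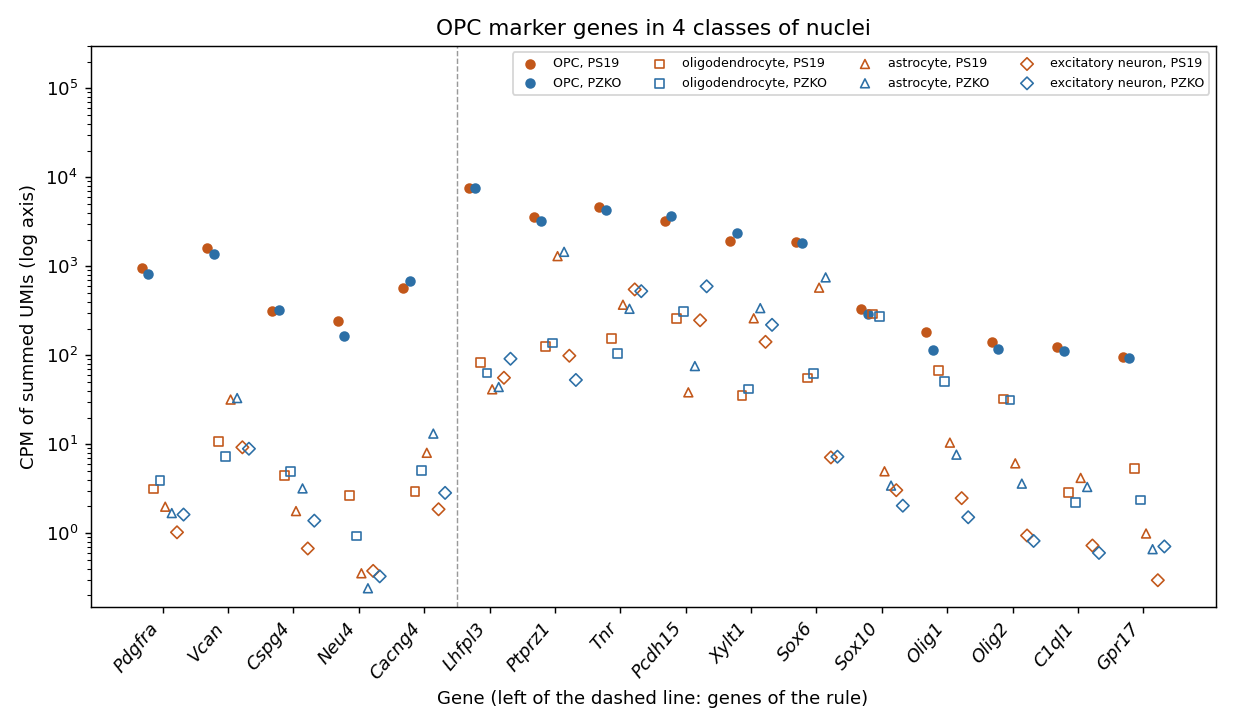
OPC marker genes in summed nuclei of 4 classes. The y axis gives CPM on a log scale, each point is 1 class in 1 library (orange, PS19; blue, PZKO), filled circles are OPCs, and genes left of the dashed line were used by the rule. *Lhfpl3* stood near 7600 CPM in OPCs of both libraries and under 100 CPM in the other classes, while *Sox10* was as high in oligodendrocytes.

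Beyond the markers, a set of 15 genes was chosen for the largest excess in OPC nuclei over all other nuclei, taken as the lower of the log2 ratios in both libraries. Not all of the set is named here. These values describe nuclei that were chosen by expression and were not tested. The gene *A930009A15Rik*, annotated as protein coding, led with 198 UMIs in PS19 against 276 in PZKO, and its log2 excess was 7.61 and 6.98. *Sapcd2*, whose product takes part in spindle orientation, followed with 7.17 and 6.83, and *S100a2*, a calcium-binding protein gene, with 7.41 and 6.78. *C1ql1*, a secreted C1q-like protein that OPCs are known to make, had 187 and 254 UMIs and an excess of 5.79 and 6.16. The guidance cues *Sema3d* (5.96 and 5.77) and *Ntn1* (5.74 and 5.45) and the committed-stage receptor *Gpr17* (5.89 and 5.48) belonged to the same set. *Gucy2f*, *Tmem255b*, *Gm42948*, *6030407O03Rik*, *Susd5* and *Scel* belonged to it together with the mitotic gene *Top2a*.

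Transcripts of dividing cells came from few nuclei. *Top2a*, a topoisomerase of dividing cells, had 208 UMIs in 18 PS19 nuclei and 209 UMIs in 13 PZKO nuclei. In each library 5 nuclei had at least 10 UMIs of *Top2a*, which is 2.46% of the PS19 OPCs (95% interval 0.804% to 5.65%) and 2.48% of the PZKO OPCs (0.808% to 5.68%), and these held 80.3% and 90.9% of its UMIs. After thinning to 3000 UMIs, *Top2a* was found in 5.82% of PS19 and 3.54% of PZKO OPCs, with intervals of 2.94% to 10.2% and 1.43% to 7.15%, and in 0.0731% and 0.438% of astrocytes. Without thinning the OPC shares were 8.87% and 6.44%. *Mki67*, another gene of dividing cells, had 45 UMIs in 9 PS19 nuclei and 56 UMIs in 6 PZKO nuclei. The summed level of the 23 cell cycle genes was 725 CPM in PS19 and 582 CPM in PZKO. Of this list 6 genes had at least 100 UMIs, with a median log2 ratio of PZKO over PS19 of −0.40, and −0.97 over the 5 measured without the deepest nuclei. The deepest PZKO nuclei held 277 UMIs of the cell cycle list, and 209 of these came from 1 nucleus. That nucleus had 63 UMIs of *Top2a* and 0 UMIs of the excitatory neuron genes counted next, so leaving out the deepest nuclei also removed a nucleus rich in cell cycle transcripts. Over all OPC nuclei *Top2a* had a ratio of −0.56 and *Cenpf*, a centromere protein gene with 88 and 62 UMIs, of −1.07, and both are counted in few nuclei.

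Among the nuclei that met the rule, committed precursors were also a minor component. The rule asked for a UMI of *Pdgfra* and limited *St18*, *Prr5l* and *Mog*, so it may have left out nuclei of this stage. How many it left out was not counted, so the values below describe the chosen nuclei only. *Gpr17* had 148 UMIs in 88 PS19 nuclei and 212 UMIs in 100 PZKO nuclei, at a log2 ratio of −0.05 (95% interval −0.36 to 0.27). After thinning, 21.7% of PS19 and 20.2% of PZKO OPCs had a UMI of *Gpr17*, against 0.292% of astrocytes in either library. Before thinning the shares were 43.3% and 49.5%, and 3 and 7 nuclei held 5 or more UMIs. *Enpp6*, a choline phosphodiesterase gene of the same stage, had 3 and 12 UMIs, and *Bmp4* 16 and 31 UMIs. The sum over *Gpr17*, *Enpp6*, *Bmp4*, *9630013A20Rik* and *Rnf122* did not exceed 7 UMIs in any PS19 nucleus, while 5 PZKO nuclei reached 10 or more. These nuclei had a median of 15044 UMIs, above the median of all PZKO OPCs, and 2 of them belong to the deep nuclei described next, with 34 and 39 UMIs of excitatory neuron genes. *Fyn*, a kinase gene that acts in differentiation, had 436 and 857 UMIs (log2 ratio 0.41, 0.24 to 0.58), and *Bcas1* 861 and 1298 UMIs (0.03, −0.10 to 0.15).

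A small number of OPC nuclei were deeper than the rest, and some of these held many UMIs of neuronal genes. In PS19 5 nuclei, and in PZKO 12 nuclei, had more than 2 times the median UMIs of the OPCs in their library, and they held 7.96% and 14.4% of all OPC UMIs. Of the UMIs of *Slc17a7*, *Nrgn*, *Rbfox3*, *Camk2a* and *Ptk2b*, genes of excitatory neurons, these nuclei held 40.2% in PS19 and 42.6% in PZKO. The median nucleus had 1 UMI of these genes in either library, and the highest had 89 and 71. Of the deep nuclei 3 in PS19 and 6 in PZKO had 25 or more, and the others had 4 or fewer. The doublet caller Scrublet placed 4 of the 5 and 7 of the 12 among the 8.37% of PS19 and 8.11% of PZKO nuclei with the highest scores. Values between genotypes are given for all OPC nuclei, and also without the deep nuclei where these bear on the result, a choice made after the data were seen.

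**Figure D2:**
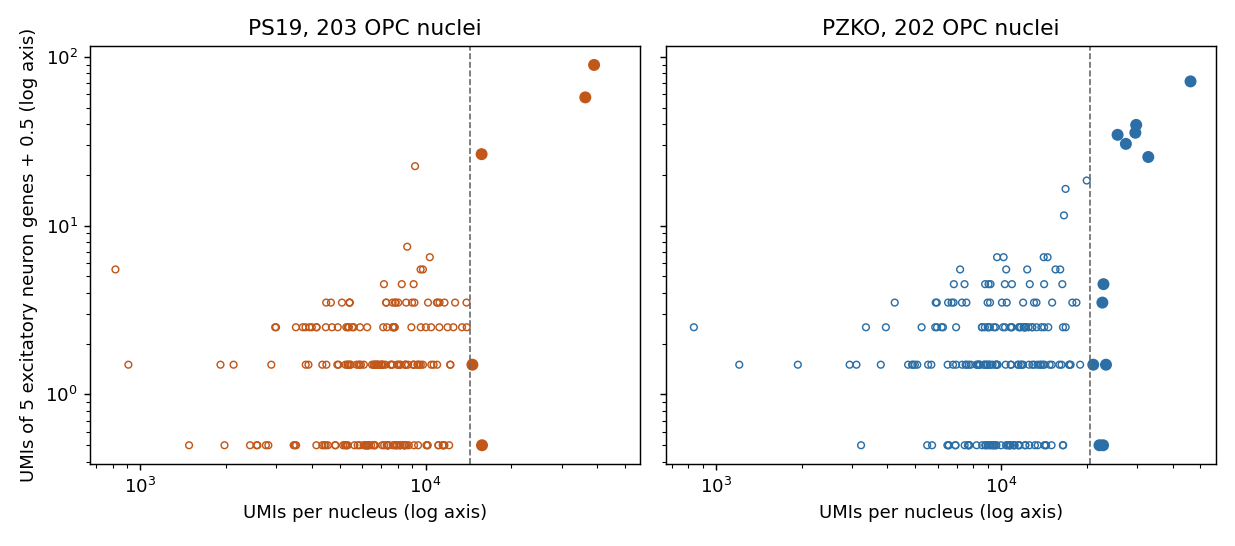
UMIs of 5 excitatory neuron genes (plus 0.5, log axis) against all UMIs (log axis), 1 point per OPC nucleus. The dashed line is 2 times the median UMIs of the library's OPCs, and the filled points right of it (5 in PS19, 12 in PZKO) include the highest value of each library, 89 and 71 UMIs.

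Genes of other cell types were present at different levels. The 10 excitatory neuron markers summed to 1264 CPM in PS19 and 1387 CPM in PZKO, led by *Syt1* (561 and 1097 UMIs), and the 11 astrocyte markers to 1128 and 1110 CPM, led by *Slc1a2* (759 and 1230 UMIs). The 10 inhibitory neuron markers summed to 5017 and 5164 CPM, but nearly all of it was *Nxph1* (4110 and 6247 UMIs) and *Adarb2* (3093 and 4593 UMIs), whereas *Lhx6* had 1 UMI in each library and *Pvalb* 2 and 3. The 10 microglia markers summed to 164 CPM in PS19 and 104 CPM in PZKO, led by *Apbb1ip* (47 and 76 UMIs), with *Tmem119* at 0 and 1 UMI. The 10 endothelial markers gave 54.4 and 39.0 CPM (*Slco1a4*, 16 and 29 UMIs), the 9 pericyte and mural markers 11.1 and 19.9 CPM (*Vtn*, 6 and 12 UMIs), and the 10 vascular leptomeningeal markers 13.8 and 34.5 CPM (*Cped1*, 7 and 38 UMIs), with *Kcnj8*, *Col1a1* and *Bnc2* at 0 in both libraries. The 10 ependymal markers gave 58.3 and 28.8 CPM (*Spag16*, 14 and 21 UMIs) and the 9 choroid plexus markers 750 and 343 CPM. Nearly all of the latter was *Ttr* (622 and 91 UMIs) and *Enpp2* (485 and 619 UMIs), which cells of the oligodendrocyte lineage also make. Of the 10 genes that the rule limits, *St18* had 57 UMIs in PS19 against 159 in PZKO, below the limit in every nucleus, and *Slc6a13* had 0.

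Between genotypes, most genes of OPCs lay close to each other. Among 6063 genes with 100 or more UMIs in the libraries together, the median log2 ratio of PZKO over PS19 was −0.02. A ratio of at least 1, a doubling of the CPM, was reached by 25 genes (0.412%), and a ratio of at most −1 by 21 genes (0.346%). With edgeR's TMM factors in place of the total, 32 genes (0.528%) were past the fold upwards and 14 (0.231%) downwards. Without the deep nuclei, 5487 genes had 100 UMIs, and 12 of them (0.219%) were higher and 23 (0.419%) lower by that fold, so that most genes past the fold were then lower ones. Of the genes past the fold, 54.3% were higher with the total as the scale, 69.6% with TMM and 34.3% without the deep nuclei.

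**Figure D3:**
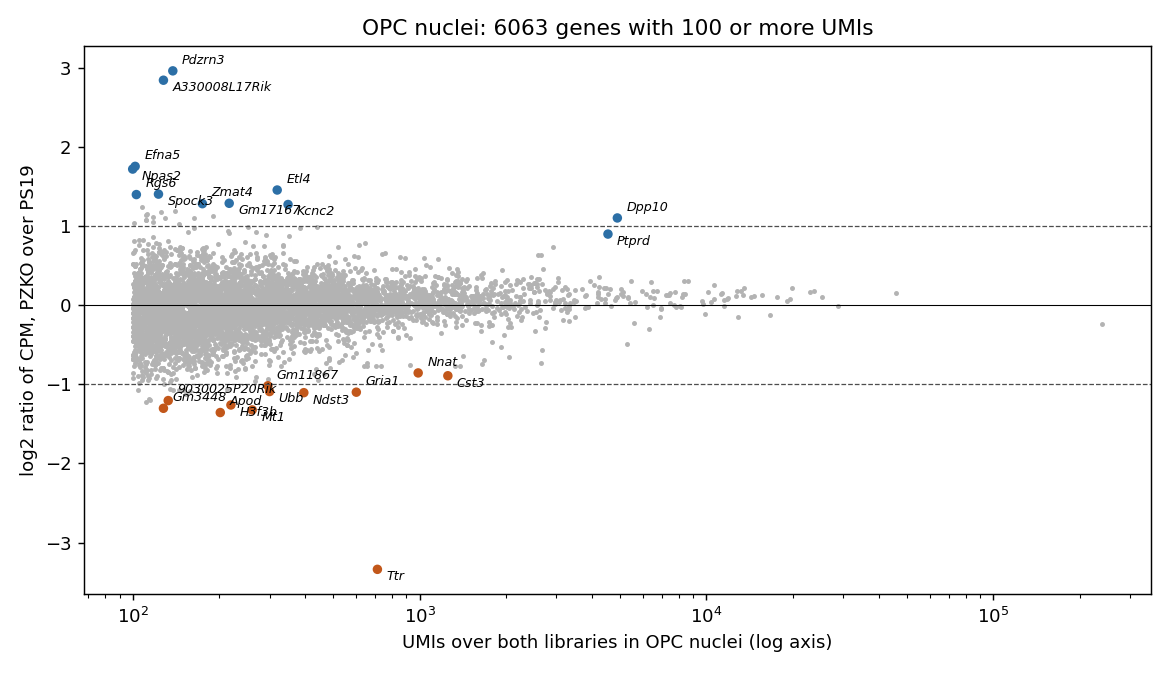
log2 ratio of CPM in OPC nuclei, PZKO over PS19, against the UMIs of each gene over both libraries (log axis), 1 point per gene with at least 100 UMIs. Dashed lines mark −1 and 1, the 12 lowest (orange) and 12 highest (blue) genes in the order of the interval limit closer to 0 are labelled, and *Ttr* lies alone at −3.34.

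*Ttr*, which encodes the thyroid hormone carrier transthyretin and is made in bulk by the choroid plexus, had 622 UMIs in PS19 OPCs against 91 in PZKO OPCs. Its log2 ratio was −3.34 (95% interval −3.67 to −3.02), the lowest of all genes with at least 100 UMIs. Oligodendrocytes stood at −3.27, astrocytes at −3.11 and excitatory neurons at −3.03, so the difference was not particular to OPCs. Over all barcodes of a library *Ttr* had 712 CPM in PS19 and 64.2 CPM in PZKO, and its level in OPCs was 57.2% and 62.8% of that. The choroid plexus genes *Folr1* (2 and 0 UMIs), *Kcne2* (1 and 0) and *Otx2* (0 and 1) were almost absent from OPC nuclei.

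Of the other genes among the 12 lowest, several were also lower in the other glial classes. *Mt1*, a metallothionein that binds zinc and copper, had 164 UMIs in PS19 against 97 in PZKO, at a log2 ratio of −1.32 (−1.70 to −0.95), and −1.10 in oligodendrocytes. *Apod*, an apolipoprotein of glia, had 128 and 74 UMIs (−1.36, −1.79 to −0.93) and −1.06 in oligodendrocytes. *Cst3*, the secreted protease inhibitor cystatin C, had 698 and 557 UMIs (−0.89, −1.05 to −0.73) and −0.96 and −0.92 in oligodendrocytes and astrocytes. *Ubb*, a polyubiquitin gene, had 177 and 123 UMIs (−1.09), and *Gm11867*, a noncoding transcript on chromosome 4, had 171 and 125 UMIs (−1.02) and −1.54 in both other glial classes, from which OPCs differed by 0.52 (0.14 to 0.90 for oligodendrocytes). The intervals of the differences from oligodendrocytes included 0 for *Mt1*, *Apod*, *Cst3* and *Ubb*, while *Mt1* differed from its ratio in astrocytes by −0.63 (−1.01 to −0.26).

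A second group among the lowest genes differed more in OPCs than in other glia. *Ndst3* (chromosome 3, 123526166 to 123690853), an enzyme that modifies heparan sulfate, had 234 UMIs in PS19 OPCs against 161 in PZKO OPCs, at a log2 ratio of −1.11 (−1.40 to −0.81). In oligodendrocytes it had 60 and 126 UMIs, a ratio of 0.85, and in astrocytes its ratio was −0.30 (−0.61 to 0.02). The difference of OPCs from oligodendrocytes was −1.96 (−2.52 to −1.41). After thinning to 3000 UMIs, 24.3% of PS19 OPCs (18.4% to 31.1%) and 11.6% of PZKO OPCs (7.51% to 16.9%) had a UMI of *Ndst3*, against 1.83% and 1.68% of astrocytes and 22.5% and 27.6% of excitatory neurons. Without thinning the OPC shares were 36.0% and 27.2%. *Nnat*, the imprinted gene of neuronatin, had 544 and 445 UMIs (−0.86, −1.04 to −0.67) and differed from its ratio in oligodendrocytes by −0.84 (−1.11 to −0.56). In astrocytes *Nnat* stood at −0.16, and in excitatory neurons at −0.66. *H3f3b*, a gene of the histone variant H3.3, had 136 and 84 UMIs (−1.26). It was also lower in oligodendrocytes (−0.69), astrocytes (−0.71) and excitatory neurons (−0.48). Its difference from oligodendrocytes was −0.57, with an interval below 0.

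*Gm3448* and *9030025P20Rik* lie next to each other on chromosome 17, at 14995787 to 15041537 and 14978468 to 14991572. *Gm3448* had 80 UMIs in PS19 against 48 in PZKO (−1.30, −1.85 to −0.77), and *9030025P20Rik*, like it annotated as protein coding, 81 and 52 UMIs (−1.21, −1.74 to −0.69). Their ratios in oligodendrocytes were −0.12 and −0.47, and the differences from OPCs were −1.18 (−1.77 to −0.61) and −0.73 (−1.36 to −0.11). *Gria1*, an AMPA receptor subunit, is also among the lowest genes, with 356 and 246 UMIs (−1.10, −1.34 to −0.86). Of its PS19 UMIs 63.5% came from the 5 deep nuclei, 134 of them from 1 nucleus, and without the deep nuclei its ratio was −0.33 (−0.69 to 0.02). Removal of the highest Scrublet scores turned its direction, to 0.17.

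Of the 12 highest genes 11 had a log2 ratio of at least 1, and 6 of these still had one without the deep nuclei. Of the 6, *Pdzrn3* (6 and 21 UMIs), *Efna5* (5 and 16) and *Npas2* (4 and 23) were then below the minimum of 100 UMIs. Of the 12 lowest, 10 were at −1 or below, and 9 of these without the deep nuclei, all but *Gria1*. *Pdzrn3* had 11 UMIs in 7 PS19 nuclei and 127 UMIs in 16 PZKO nuclei (2.96), but 83.5% of the PZKO UMIs lay in deep nuclei and the ratio without them was 1.35 (−0.01 to 2.95). *A330008L17Rik*, a long noncoding RNA, had 11 and 117 UMIs (2.84), 96.6% of the PZKO UMIs lay in deep nuclei, and the ratio without them was −1.05 (−3.31 to 1.03). *Dpp10*, an auxiliary subunit of potassium channels, had 1170 UMIs in 185 PS19 nuclei and 3722 UMIs in 196 PZKO nuclei. Its ratio was 1.10 (1.01 to 1.20) with the deep nuclei, of which 1 held 536 UMIs, and 0.54 (0.43 to 0.66) without them. *Ptprd*, a receptor phosphatase of synaptic contacts, had 1206 and 3331 UMIs (0.90) and 0.60 (0.48 to 0.71) without the deep nuclei.

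*Gm17167*, *Kcnc2* and *Etl4* had at least 100 UMIs and an interval above 0 with and without the deep nuclei. *Gm17167*, a noncoding transcript on chromosome 4 (42206998 to 42235313), had 47 UMIs in 26 PS19 nuclei and 170 UMIs in 97 PZKO nuclei, at a log2 ratio of 1.29 (0.82 to 1.79). The ratio was 1.24 (0.75 to 1.75) without the deep nuclei. Oligodendrocytes stood at 1.46, astrocytes at 1.09 and excitatory neurons at 1.75. After thinning, 6.35% of PS19 OPCs (3.32% to 10.8%) and 20.2% of PZKO OPCs (14.8% to 26.5%) had a UMI of it, and without thinning 12.8% and 48.0%. The thinned shares were 6.73% and 17.9% in astrocytes and 5.44% and 20.1% in excitatory neurons, near those in OPCs, and 0.505% and 1.97% in oligodendrocytes, below them. *Kcnc2*, a voltage-gated potassium channel gene, had 76 and 272 UMIs (1.27, 0.90 to 1.66), 1.69 (1.23 to 2.16) without the deep nuclei and 1.44 in oligodendrocytes. *Etl4* (63 and 256 UMIs) stood at 1.46, at 1.62 (0.95 to 2.34) without the deep nuclei, and at 0.78 (−0.03 to 1.64) when nuclei with oligodendrocyte genes were also left out. *Npas2* (17 and 83 UMIs) stood at 1.72 and at 2.06 (0.51 to 4.06) with those few UMIs without the deep nuclei. *Efna5* (17 and 85 UMIs, 1.76), *Spock3* (25 and 98, 1.40), *Zmat4* (38 and 137, 1.28) and *Rgs6* (21 and 82, 1.40) completed the 12 highest. For *Efna5*, *Spock3*, *Zmat4* and *Rgs6* the interval without the deep nuclei included 0.

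**Figure D4:**
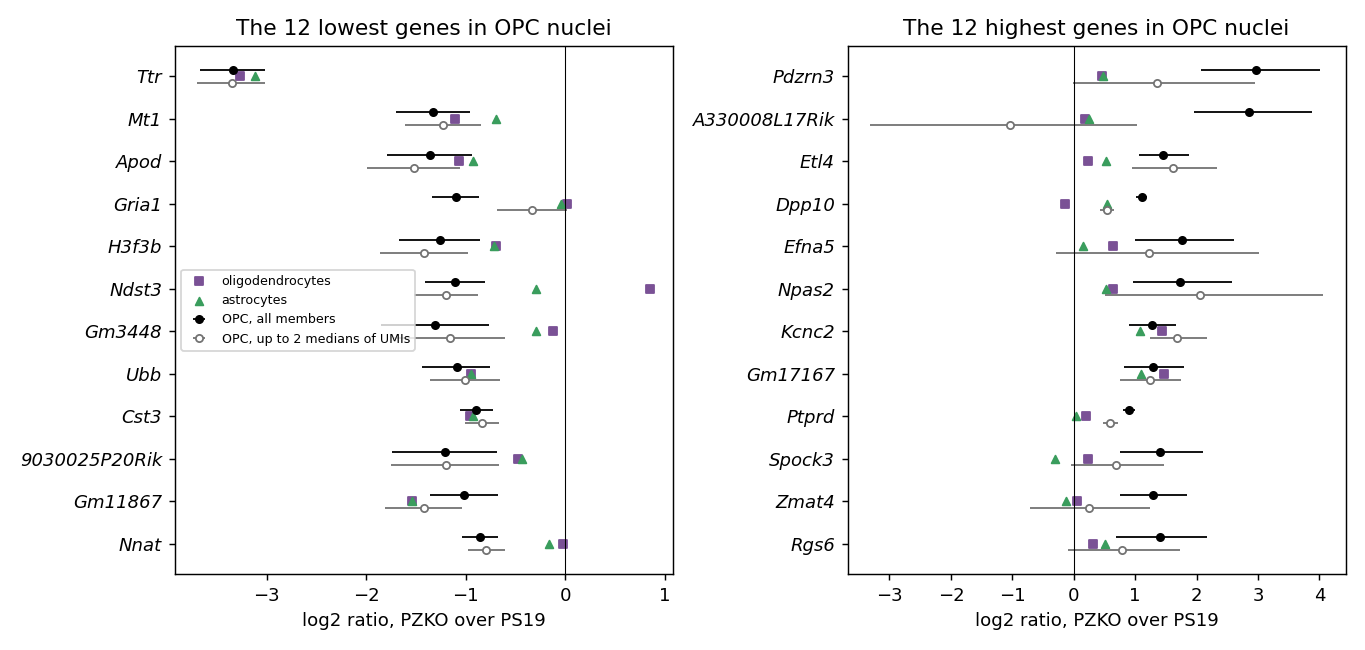
The 12 lowest and 12 highest genes in OPCs. Black points are log2 ratios over all OPC nuclei and open grey points those without the deep nuclei, with 95% intervals of counting error; squares and triangles are the ratios in oligodendrocytes and astrocytes. *Ndst3* lies at −1.11 in OPCs and at 0.85 in oligodendrocytes, and *A330008L17Rik* moves from 2.84 to −1.05 without the deep nuclei.

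Gene lists were then read by role, as the median log2 ratio of the members with at least 100 UMIs and the number at or past 0.5 in either direction. Of all 6063 genes 224 (3.69%) were at 0.5 or above and 426 (7.03%) at −0.5 or below. The identity genes lay near the median of all genes: all 15 OPC markers outside the rule had enough UMIs, their median was −0.03 (0.048 with TMM factors), and 1 of 15 was at −0.5 or below. This was *Olig1*, a transcription factor of the lineage, with 280 UMIs in PS19 against 257 in PZKO (−0.69, −0.94 to −0.44). Its ratio was −0.40 in oligodendrocytes and −0.45 in astrocytes, and the intervals of both differences from OPCs included 0. After thinning to 3000 UMIs, 44.4% of PS19 OPCs and 30.3% of PZKO OPCs had a UMI of *Olig1*, against 3.65% and 2.63% of astrocytes. The 95% intervals did not overlap, but met within rounding at 37.2%. Without thinning 66.0% and 67.8% had one. *Olig2* had 216 and 263 UMIs (−0.28, −0.55 to −0.02), and *Xylt1*, which starts the sugar chains of proteoglycans, had 2938 and 5384 UMIs (0.31, 0.24 to 0.37). Among the genes of the rule the ratios were −0.20 for *Pdgfra* (1450 and 1874 UMIs), −0.23 for *Vcan* (2467 and 3124), 0.06 for *Cspg4* (475 and 733), −0.56 for *Neu4* (369 and 370) and 0.26 for *Cacng4* (866 and 1540).

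Genes of differentiation gave no common direction. Of 12 committed precursor genes 8 had 100 UMIs, with a median of 0.08 and none at or past 0.5. This median was larger with no exclusion genes. It had the opposite sign when nuclei were thinned and members chosen anew, as given under the dependence on processing. Of 14 genes of myelin and mature oligodendrocytes 9 were measured, with a median of −0.21 and 2 at −0.5 or below. *Mbp*, the myelin basic protein gene, had 285 and 515 UMIs (0.29, 0.08 to 0.50). *Mal* (79 and 56 UMIs, −1.06) and *Trf*, the transferrin gene (113 and 98 UMIs, −0.77), were the lowest. Of the nuclei kept by the rule, 5 in PS19 and 14 in PZKO had 5 or more UMIs of *St18*, *Prr5l* and *Mog* per 10000, and without these and the deep nuclei, left out after the data were seen, *Mbp* stood at 0.30 (0.04 to 0.56), *Mal* at −1.70 (−2.42 to −1.02) and *Trf* at −0.90 (−1.41 to −0.40).

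Among 28 genes of growth factor signaling 18 were measured, with a median of −0.05, 1 at 0.5 or above and 1 at −0.5 or below. The ligand genes *Pdgfa* (26 and 40 UMIs) and *Pdgfb* (3 and 5 UMIs) were too low to compare. *Erbb3*, a neuregulin receptor of glia, had 70 UMIs in PS19 against 45 in PZKO (−1.20, −1.78 to −0.64) and a ratio of −1.11 without the deep nuclei. In oligodendrocytes it stood at 0.21, and OPCs differed from them by −1.41 (−2.01 to −0.83). In astrocytes it stood at −0.75, and the interval of the difference from OPCs (−0.45, −1.67 to 0.80) included 0. *Erbb4*, which binds the same ligands, had 4133 and 6487 UMIs (0.08, 0.03 to 0.14). *Spry1*, a feedback inhibitor of receptor kinases, had 40 and 89 UMIs (0.59, 0.03 to 1.16).

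Of 20 further lineage transcription factors 15 were measured, with a median of −0.02. *Sox11*, a factor of immature cells, had 62 and 55 UMIs (−0.74, −1.29 to −0.19), and *Sox5* had 1699 and 2898 UMIs (0.20, 0.12 to 0.29). Of 21 genes of Notch, Wnt and BMP signaling 14 were measured, with a median of 0.03. *Axin2*, a target and inhibitor of Wnt signaling, had 79 and 73 UMIs (−0.68, −1.16 to −0.20), and *Lingo1*, a brake on differentiation, had 43 and 105 UMIs (0.72, 0.20 to 1.27).

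Transmitter receptors and channels had medians near 0. Of 34 glutamate and GABA receptor genes 30 were measured, with a median of 0.08, 1 at 0.5 or above and 2 at −0.5 or below. The AMPA receptor subunits *Gria2* (1888 and 2766 UMIs, −0.02), *Gria3* (907 and 1391, 0.05) and *Gria4* (1762 and 2651, 0.02) had ratios near 0. *Grm3*, a metabotropic receptor gene, had 64 and 188 UMIs (0.99, 0.57 to 1.42) and 1.37 without the deep nuclei, while *Grm5* had 2873 and 3447 UMIs (−0.30, −0.38 to −0.23). Of 22 ion channel genes 19 were measured, with a median of 0.13, 2 at 0.5 or above and none at −0.5 or below. *Kcnd2*, an A-type potassium channel gene, had 5933 and 9639 UMIs (0.13, 0.09 to 0.18). Of 22 genes of matrix and adhesion 18 were measured, with a median of −0.02, and 1 was at −0.5 or below, the proteoglycan gene *Ncan* (130 and 133 UMIs, −0.53).

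Genes that glia raise in disease were lower in PZKO OPCs. Of 16 disease-associated oligodendroglial genes 10 were measured, with a median of −0.78, and 8 of 10 were at −0.5 or below, against 7.03% of all genes. In the same nuclei the medians of mitochondrially encoded and ribosomal protein genes were −0.67 and −0.54, and their part in this result was not tested. *Apoe*, the lipid carrier apolipoprotein E, had 710 UMIs in PS19 against 615 in PZKO (−0.77, −0.93 to −0.62), *Clu* (clusterin) 393 and 343 UMIs (−0.76, −0.98 to −0.55), and the lysosomal protease gene *Ctsd* 93 and 75 UMIs (−0.88, −1.33 to −0.42). *C4b*, a complement gene, had 172 and 182 UMIs (−0.48, −0.79 to −0.18), *Il33*, an alarmin gene, 72 and 56 UMIs (−0.93, −1.46 to −0.40), and *Sgk1*, a kinase gene, went the other way with 250 and 441 UMIs (0.25, 0.03 to 0.48). *Serpina3n* had 36 and 21 UMIs. The list stood at −0.84 in oligodendrocytes, at −0.61 in astrocytes and at −0.85 in excitatory neurons. Several of these genes are abundant in astrocytes and microglia, whose summed markers in the OPC nuclei went from 1128 to 1110 CPM and from 164 to 104 CPM. An estimate of free RNA, from marker genes of other cell types, put it at 12.7% of OPC UMIs in PS19 and 12.1% in PZKO. The profile taken for free RNA was the sum over all barcodes of a library, most of which are nuclei. *Ttr* in OPCs stood at 57.2% and 62.8% of its level in that profile, so the subtraction left most of it in place. How much free RNA of the listed genes it removed is therefore unknown. With this estimate subtracted the median of the list was −0.74, and without the deep nuclei it was −0.72.

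Immune genes were sparse. Of 16 antigen presentation genes 2 were measured, *B2m*, the light chain of MHC class I (93 and 65 UMIs, −1.08, −1.56 to −0.61), and the class I heavy chain gene *H2-D1* (86 and 89 UMIs, −0.52, −0.96 to −0.07), and the list summed to 254 CPM in PS19 and 168 CPM in PZKO. Of 25 interferon-stimulated genes 6 were measured, with a median of −0.10 and 1 at −0.5 or below, *Stat2* (82 and 75 UMIs, −0.69, −1.17 to −0.23). The list summed to 626 CPM in PS19 and 511 CPM in PZKO, and with a minimum of 50 UMIs its median was −0.40 over 12 genes. In the ZBP1 pathway *Ripk3*, the kinase downstream of ZBP1 in necroptosis, and *Casp8* had 0 UMIs in both libraries, and *Mlkl* had 2 and 8 UMIs. Of its 13 genes 4 were measured, with a median of 0.10. *Adar*, whose product edits double-stranded RNA, had 94 and 140 UMIs (0.01, −0.38 to 0.40), and *Adarb1*, another editing enzyme, 67 and 153 UMIs (0.63, 0.20 to 1.06).

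Of 20 genes of senescence and DNA damage 7 were measured, with a median of −0.07. *Atr*, a kinase gene of the replication stress response, had 91 and 210 UMIs (0.64, 0.28 to 1.01), and the cell cycle inhibitors *Cdkn1a* (15 and 20 UMIs) and *Cdkn2a* (11 and 6 UMIs) were near the limit of detection. Of 18 genes of cholesterol synthesis 4 were measured, with a median of −0.01. Of 16 clock genes 9 were measured, with a median of 0.26, and 2 were at 0.5 or above, *Npas2* and *Hlf* (83 and 188 UMIs, 0.61). Of 16 immediate early genes only *Jun* (69 and 59 UMIs, −0.79) and *Nr4a1* (32 and 77 UMIs, 0.70) were measured, in opposite directions. Of 13 nuclear long noncoding RNAs 11 were measured, with a median of 0.42 and 5 at 0.5 or above, but *Malat1*, which held 69380 CPM in PS19 and 59070 CPM in PZKO, had a ratio of −0.23. *Meg3* had 844 and 2083 UMIs (0.74, 0.62 to 0.85) and 0.53 without the deep nuclei, and *Rian* 98 and 285 UMIs (0.97) and 0.40 without them.

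Lists of housekeeping genes had negative median ratios in OPCs, and the median mitochondrial share was also lower in PZKO. Not every member was lower by its interval, which included 0 for 25 of 67 ribosomal and 18 of 29 nuclear oxidative phosphorylation genes. Of 83 cytosolic ribosomal protein genes 67 were measured, with a median of −0.54, and 39 were at −0.5 or below. Of 81 nuclear genes of oxidative phosphorylation 29 were measured, with a median of −0.41 and 10 at −0.5 or below, and of 13 mitochondrially encoded genes 12 were measured, with a median of −0.67 and 10 at −0.5 or below. Of 16 heat shock genes 10 were measured, with a median of −0.36 and 5 at −0.5 or below, among them *Hspa8*, a constitutive chaperone gene (128 and 101 UMIs, −0.91, −1.30 to −0.52), and *Hsp90b1* of the endoplasmic reticulum (302 and 284 UMIs, −0.65). Ribosomal medians stood at −0.45 in oligodendrocytes, at −0.53 in astrocytes and at −0.41 in excitatory neurons. Under a stricter filter (1000 UMIs, 500 genes and at most 1% mitochondrial UMIs) the mitochondrially encoded median was −0.38, and the ribosomal median was −0.47. The genotype and the preparation of its library cannot be told apart.

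**Figure D5:**
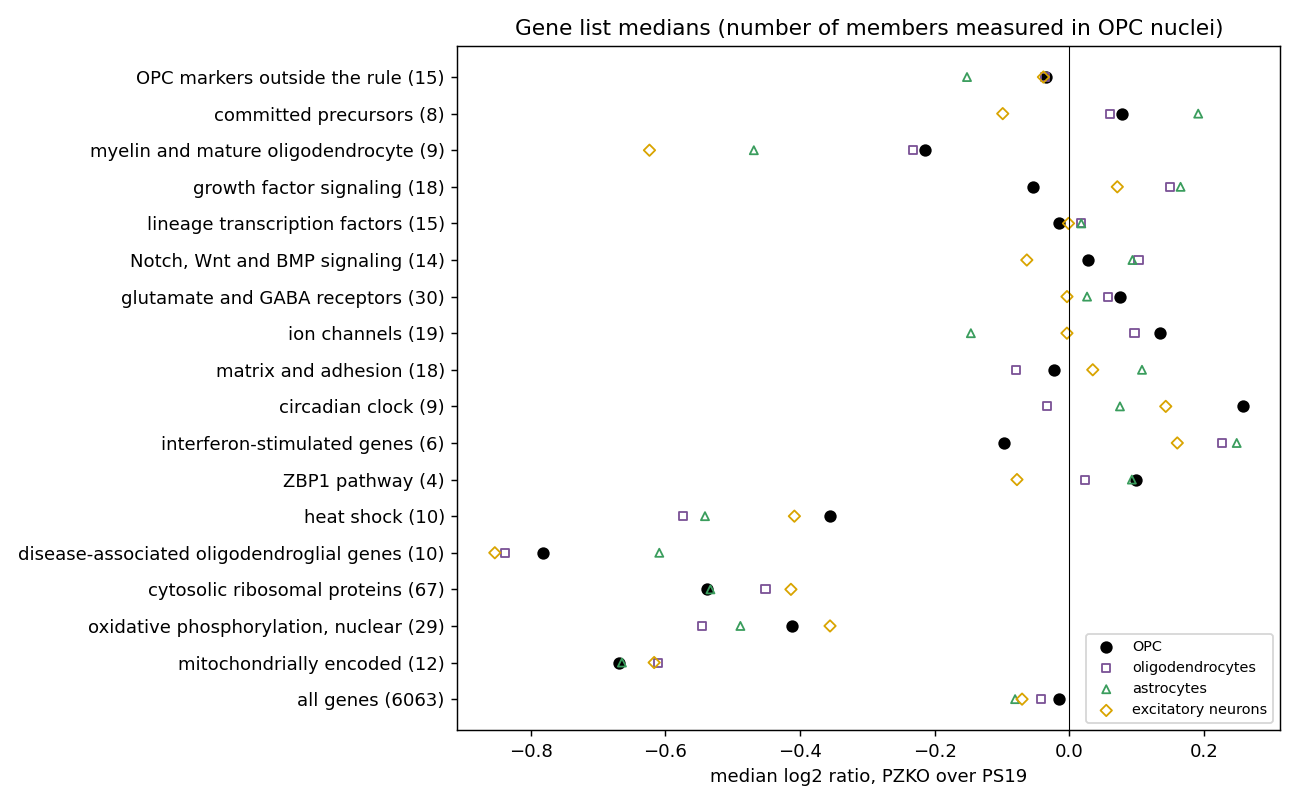
Median log2 ratio of PZKO over PS19 for gene lists in 4 classes of nuclei, over members with at least 100 UMIs in the class; the number measured in OPCs is in parentheses. Disease-associated, ribosomal, oxidative phosphorylation and mitochondrially encoded genes lie left of −0.3 in each class, and the lists of OPC identity, receptors and channels lie within 0.2 of 0 in OPCs.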

How the data were processed

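The authors deposited raw UMI counts per gene and nucleus, made with Cell Ranger on mm10. The study names version 7.0.1, and the matrix headers name 8.0.1. The correction of ambient RNA, the filter and the removal of doublets described in the methods are not in these counts. The files held 11469 PS19 and 10920 PZKO barcodes, where 6000 nuclei per sample were targeted, and 10466 and 10128 passed the filters. Doublets were removed only by the rule's limits. Scrublet (Scanpy 1.11.5) marked 0 PZKO nuclei by its own threshold and so had not worked there, and its ranked scores served as an alternative. Comparison classes came from rules of the same form: *St18*, *Prr5l* and *Mog* at 20 or more (oligodendrocytes), *Aqp4*, *Gja1* and *Slc4a4* at 10 or more (astrocytes), and *Slc17a7* and *Camk2a* at 10 or more (excitatory neurons). Counts were summed over nuclei and scaled to 1000000 UMIs. Ratios carry exact conditional binomial (Clopper-Pearson) intervals, and differences between classes the exact conditional interval of the odds ratio. The functions were tested on simulated counts. Genes named are *Zbp1*, genes of the rule, genes among the 15 that set OPCs most apart (genes of the rule left out), the 12 lowest and 12 highest by the interval end nearest to 0, members of the lists described and the most abundant marker of other cell types. The members, lists and alternatives were chosen with earlier results of these data known. Gene positions are from GENCODE M21. Alternatives used edgeR 4.0.16 TMM and DESeq2 1.42.0 size factors. Overlapping and antisense genes are uncertain, since the strand setting of the count was not given in the sources used here. Some genes of the lists and rankings are not reported here by name.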

Additional observations from a re-analysis of the deposited data

Results flagged for a closer look

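The following genes among the 12 lowest or highest in OPCs had a ratio on the other side of 0 in oligodendrocytes or astrocytes, each with an interval clear of 0. The intervals cover counting error only, and no test between mice was possible. *Ndst3* had a log2 ratio of PZKO over PS19 of −1.11 in OPCs and 0.85 (95% interval 0.40 to 1.32) in oligodendrocytes, and excitatory neurons stood at 0.26 (0.21 to 0.31), while astrocytes, at −0.30 (−0.61 to 0.02), had the sign of the OPCs. *Dpp10* had 1.10 in OPCs and −0.14 (−0.23 to −0.06) in oligodendrocytes, but astrocytes (0.54) and excitatory neurons (0.98) had the sign of the OPCs, whose value without the deep nuclei was 0.54. *Spock3* had 1.40 in OPCs and −0.31 (−0.41 to −0.20) in astrocytes, with −0.31 in excitatory neurons as well, and *Zmat4* had 1.28 in OPCs and −0.12 (−0.21 to −0.04) in astrocytes, but without the deep nuclei the OPC values were 0.69 for *Spock3* and 0.24 for *Zmat4*, both with an interval that included 0, and both were below 0 when OPC nuclei with oligodendrocyte genes were also left out.

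Among barcodes below the filters, which entered no comparison, 15 of 1003 in PS19 (95% interval of the share 0.839% to 2.45%) and 5 of 792 in PZKO (0.631%, 0.205% to 1.47%) also met the marker rule. They are given because they lie outside the nuclei compared.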

How the results depend on the processing

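No paired analysis was possible because each genotype has 1 library, and no replicate was left out for the same reason. The count of genes past the fold followed the minimum on UMIs, which also set the number of genes compared. At 50 UMIs 67 of 8767 genes were higher in PZKO (0.764%) and 83 lower (0.947%). At 300 UMIs 3 of 2378 were higher (0.126%) and 4 lower (0.168%). With no minimum, where a count of 0 in one library was set to 3, 951 of 19321 were higher (4.92%) and 1358 lower (7.03%). With 20 UMIs required in each library 26 of 8854 were higher (0.294%) and 79 lower (0.892%). With the mean over nuclei 33 of 6063 genes were higher (0.544%) and 35 lower (0.577%). With ambient RNA subtracted 66 of 6046 were higher (1.09%) and 33 lower (0.546%). Without the filters on nuclei 23 of 6125 were higher (0.376%) and 37 lower (0.604%). Without the 17 PZKO and 14 PS19 OPC nuclei of highest Scrublet score 11 of 5356 were higher (0.205%) and 18 lower (0.336%). With the stricter marker threshold 14 of 5170 were higher (0.271%) and 16 lower (0.309%). With a marker sum of 5 (the looser threshold) 46 of 6953 were higher (0.662%) and 33 lower (0.475%). With no exclusion genes 33 of 6874 were higher (0.480%) and 39 lower (0.567%). For the thinned alternative the rule was applied anew to nuclei thinned to 3000 UMIs, which gave 146 PS19 and 150 PZKO members. Among these 4 of 1635 genes were higher (0.245%) and 7 lower (0.428%). Among alternatives chosen after seeing the data, 12 of 5487 genes were higher (0.219%) and 23 lower (0.419%) without the deep nuclei. When OPC nuclei with oligodendrocyte genes were also left out, 7 of 5253 were higher (0.133%) and 19 lower (0.362%). The OPC share was 2.26% in PS19 and 2.28% in PZKO under the stricter filter, 1.67% in both libraries under the stricter marker threshold, 2.38% and 2.48% with no exclusion genes, and 1.79% and 1.73% when thinned.

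*Gria1* turned to 0.17 without the highest Scrublet scores, 0.53 under the stricter and 0.42 under the looser marker threshold, and *Rgs6* to −0.56 under the looser one. With nuclei thinned and members chosen anew, *Olig2* turned to 0.0061 and *Neu4*, itself a gene of the rule, to 0.0083. TMM factors moved the medians of OPC markers outside the rule to 0.048, of receptors to 0.16 and of ribosomal genes to −0.46. The ribosomal median was −0.47 under the stricter filter, −0.64 with no filter and −0.76 when thinned, and the mitochondrially encoded median was −0.38, −0.97 with no filter, −0.82 with the looser markers and −0.80 with no exclusion genes. The committed precursor median was 0.24 with no minimum, 0.46 with no exclusion genes and −0.11 when thinned. The receptor median was 0.20 with the looser markers and 0.0039 with no exclusion genes, and the disease-associated median was −0.65 when thinned. The causes were not tested. Without the deep nuclei the medians of OPC markers outside the rule and of committed, disease-associated, ribosomal and mitochondrially encoded genes were −0.03, 0.02, −0.72, −0.52 and −0.64. *Pdzrn3* was 0.61 under the looser marker threshold. Of the values of single genes, 421 stayed within their interval, 59 left it, and the 6 given above reversed a ratio clear of 0. Among the 59, *Lhfpl3*, at −0.01, turned to 0.08 with TMM. Genes under the minimum of an alternative gave no value there, and *A330008L17Rik*, with a ratio of −1.05 without the deep nuclei, was one of them.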

Other observations

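*Ermard*, chosen after its values were seen, lies beside *Gm3448* and *9030025P20Rik* on chromosome 17 (15041208 to 15090044, mm10) and overlaps the end of *Gm3448* on the other strand. It had 257 UMIs in PS19 OPCs and 209 UMIs in PZKO OPCs, a log2 ratio of −0.86 (95% interval −1.13 to −0.60). Its ratio was −0.26 in oligodendrocytes and 0.12 in astrocytes, and the differences of OPCs from these classes were −0.60 (−0.91 to −0.29) and −0.99 (−1.30 to −0.67).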
